A study of Mus musculus with 8 samples.

Results

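Genes for the synthesis, uptake and efflux of cholesterol were examined in RNA-seq of mouse liver. They were 31 genes chosen by symbol from the deposited expression table, of 38283 genes in all: 20 enzymes of sterol synthesis, 4 genes of transport in the cell and uptake, 5 of efflux and esterification, and the genes of both LXR receptors. All 31 were above the filter on low values (FPKM above 1 in at least 1 library), which 11634 genes passed. FPKM is a fragment rate scaled to transcript length and to library size, so that levels of different genes can be set side by side.

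The liver builds cholesterol from acetyl-CoA, first along the mevalonate path to isoprenoids and then through squalene and lanosterol. When sterols are scarce in the endoplasmic reticulum, the transcription factor SREBP2 is carried by its escort SCAP to the Golgi, is cut there and turns on the enzyme genes. When sterols are plentiful, INSIG proteins hold SCAP back, and the LXR nuclear receptors, which sense oxysterols, turn on genes that export sterols.

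The study asked what loss of the nuclear receptor RORα in hepatocytes does to the liver on a control diet (CD) and on a high-fat diet (HFD). Male mice of the C57BL/6 background were put on either diet at 8 weeks of age and kept on it for 10 weeks. RORα f/f mice carry floxed Rora alleles and served as controls. RORα LKO mice carry the same floxed alleles together with Cre driven by the albumin promoter. This Cre removes exons 4 and 5 of Rora in hepatocytes, and the state of Rora in the other cells of the liver was not measured. There were 8 libraries of whole liver, 2 for each of the 4 groups of diet and genotype, and RNA of 2 mice went into each library. In such bulk samples, fewer cells of a type and less RNA per cell cannot be told apart.

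Rora itself did not separate the genotypes on the HFD: its FPKM was 8.85 and 8.59 in the CD f/f libraries, 7.96 and 8.18 in the CD LKO libraries, 7.56 and 7.86 in the HFD f/f libraries and 7.30 and 8.02 in the HFD LKO libraries. A transcript that lacks the deleted exons still adds to the value of the whole gene, so this level checks the labels poorly. The libraries are therefore called f/f-labelled and LKO-labelled, and a direction between genotypes is only as sure as these labels. Between 10587 and 10706 genes were above 1 FPKM in a library, and Spearman's rho was 0.969 to 0.975 for the 4 pairs of libraries of a group and 0.958 to 0.974 for the 24 other pairs. Hepatocyte markers were at high levels, and their sum without Alb was 14580 to 15573 FPKM on CD and 14164 to 15836 FPKM on HFD. Within this sum, mean FPKM was higher on HFD for Cyp2e1 (4236 on CD and 6197 on HFD). It was lower on HFD for Ahsg (5160 and 3998), Cps1 (737 and 543) and Tat (745 and 290). Alb is listed at 0 in 4 of the 8 libraries: the first CD LKO, the second HFD f/f and both HFD LKO libraries. One library, the first HFD LKO library, stood apart from its partner in the synthesis enzymes, and values without it are given beside the results whose call it changed or whose value it moved most.

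The synthesis enzymes were lower on the HFD than on the CD. Averaged over genotypes, 12 of the 20 enzymes fell and 0 rose at an adjusted p under 0.05 (limma on quantile normalised log2(FPKM + 1), Benjamini-Hochberg adjustment over all 11634 genes), and 19 of the 20 had a log2 fold change below 0. The largest falls were those of Fdps, Sqle, Idi1, Cyp51 and Nsdhl, whose mean FPKM was 3.22 to 3.77 times higher on CD than on HFD. Outside synthesis, 1 of the 11 genes fell and 2 rose. Over all 31 genes, 13 fell and 2 rose, where 4.86% of all genes tested fell and 5.04% rose. The median log2 fold change was -0.35 over the 31 genes, -0.65 over the 20 enzymes, 0.05 over the 11 others and 0.01 over all genes tested.

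**Figure D1:**
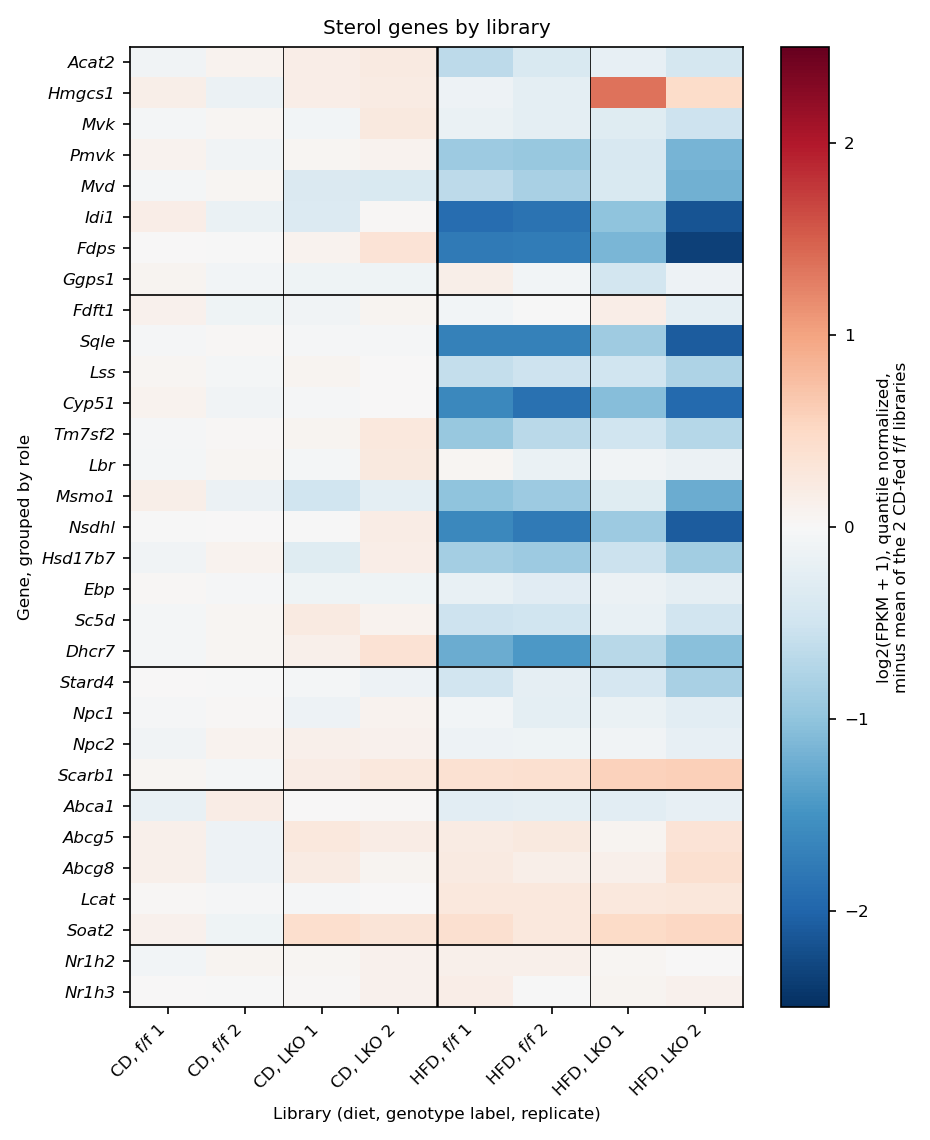
Heat map of the 31 genes (vertical axis, grouped by role) in the 8 libraries (horizontal axis), coloured by quantile normalised log2(FPKM + 1) minus the mean of both CD f/f libraries, blue for lower and red for higher. The HFD libraries are blue for Fdps, Sqle, Idi1, Cyp51, Nsdhl and Dhcr7, paler in the first HFD LKO library, and red for Scarb1, while Hmgcs1 is red in the HFD LKO libraries.

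Among the 8 genes of the mevalonate and isoprenoid steps, 4 fell (Acat2, Pmvk, Idi1 and Fdps), and the median log2 fold change was -0.54. Fdps (farnesyl diphosphate synthase, ENSMUSG00000059743, GRCm38 chr3:89093588-89101959, minus strand), which makes the last isoprenoid before squalene, had 79.4 and 78.4 FPKM in the CD f/f libraries, 83.1 and 101 in the CD LKO libraries, 21.7 and 22.1 in the HFD f/f libraries and 32.7 and 14.2 in the HFD LKO libraries. All 4 HFD libraries were below all 4 CD libraries, although the HFD LKO libraries lay on either side of the f/f pair. On the log2 scale the fall was -1.86 (SE 0.24, 95% interval -2.42 to -1.29, adjusted p = 0.0085). The annotation places 77.4% of the exon bases of Fdps also in exons of Gm43738, a gene model on the same strand, so the share of reads that each received is uncertain.

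Idi1 (isopentenyl diphosphate isomerase, ENSMUSG00000058258, chr13:8885501-8892451, plus strand) interconverts the isoprenoid building units. It had 55.4 and 41.9 FPKM in CD f/f, 37.1 and 48.7 in CD LKO, 11.8 and 12.2 in HFD f/f and 22.3 and 9.62 in HFD LKO libraries, a log2 fold change of -1.65 (SE 0.24, adjusted p = 0.012). The gap between diets was wide: the highest HFD library, 22.3 FPKM, was well under the lowest CD library, 37.1 FPKM. Pmvk (phosphomevalonate kinase) had 20.2 and 17.8 FPKM in CD f/f, 19.4 and 19.97 in CD LKO, 9.45 and 9.09 in HFD f/f and 13.5 and 7.74 in HFD LKO libraries (log2 fold change -0.89, SE 0.16, adjusted p = 0.020). Acat2, the thiolase that opens the path, had 14.0 and 15.8 FPKM in CD f/f, 16.5 and 17.3 in CD LKO, 8.96 and 10.8 in HFD f/f and 12.2 and 10.3 in HFD LKO libraries (log2 fold change -0.51, SE 0.09, adjusted p = 0.019). Both genes kept every HFD library under every CD library.

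The other 4 genes of these steps did not pass the test. Mvk (mevalonate kinase) had 6.18 to 7.79 FPKM on CD and 4.13 to 5.65 on HFD, with no overlap (log2 fold change -0.35, adjusted p = 0.058). Mvd (mevalonate diphosphate decarboxylase), at 2.29 to 3.42 FPKM on CD and 0.847 to 2.25 on HFD, had a log2 fold change of -0.58 (adjusted p = 0.085). It was -0.78 without the first HFD LKO library, which gave the 2.25, and -0.84 to -0.37 over all alternative fits. Ggps1, which makes geranylgeranyl diphosphate for protein prenylation rather than for sterols, stood at 2.67 to 3.12 FPKM on CD and 1.85 to 3.34 on HFD (log2 fold change -0.07, 95% interval -0.31 to 0.17). Hmgcs1, the synthase that makes HMG-CoA, was the 1 enzyme of the 20 with a value above 0 (0.26, adjusted p = 0.42). Its value was 0.04 without the first HFD LKO library and up to 0.49 over all alternative fits. This gene is described with the genotypes.

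Of the 12 genes of the squalene and sterol steps, 8 fell, all 12 had log2 fold changes below 0, and the median was -0.72. Sqle (squalene epoxidase, ENSMUSG00000022351, chr15:59315077-59331192, plus strand), which adds the first oxygen to squalene, had 11.9 and 12.3 FPKM in CD f/f, 11.7 and 11.8 in CD LKO, 3.02 and 2.89 in HFD f/f and 5.84 and 2.02 in HFD LKO libraries. The 4 CD libraries lay close together, and every HFD library was below them. The log2 fold change was -1.57 (SE 0.23, adjusted p = 0.013).

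Lss (lanosterol synthase) closes the sterol rings. It had 8.80 and 8.08 FPKM in CD f/f, 8.76 and 8.45 in CD LKO, 5.19 and 5.40 in HFD f/f and 5.42 and 4.39 in HFD LKO libraries (log2 fold change -0.62, SE 0.08, adjusted p = 0.0079). Cyp51 (ENSMUSG00000001467, chr5:4081145-4104746, minus strand), the demethylase that acts on lanosterol, had 36.2 and 31.4 FPKM in CD f/f, 32.3 and 34.2 in CD LKO, 10.2 and 8.36 in HFD f/f and 14.9 and 7.83 in HFD LKO libraries (log2 fold change -1.61, SE 0.18, adjusted p = 0.0064). Both fell with no overlap between the diets. Tm7sf2, a sterol reductase, had 61.6 and 64.1 FPKM in CD f/f, 65.0 and 76.0 in CD LKO, 31.2 and 37.3 in HFD f/f and 41.5 and 37.0 in HFD LKO libraries (log2 fold change -0.79, SE 0.09, adjusted p = 0.0061). Lbr, a nuclear membrane protein with the same reductase activity, was much lower in level, at 1.65 to 2.29 FPKM on CD and 1.42 to 1.86 on HFD, and did not pass (log2 fold change -0.14, adjusted p = 0.40).

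Nsdhl and Hsd17b7 are both dehydrogenases of the complex that strips methyl groups from the sterol ring. Nsdhl (ENSMUSG00000031349, chrX:72918557-72958514, plus strand) had 32.9 and 32.8 FPKM in CD f/f, 32.1 and 37.2 in CD LKO, 9.98 and 8.70 in HFD f/f and 16.4 and 6.85 in HFD LKO libraries (log2 fold change -1.63, SE 0.23, adjusted p = 0.012). Hsd17b7 had 21.7 and 24.7 FPKM in CD f/f, 18.5 and 25.9 in CD LKO, 12.3 and 11.6 in HFD f/f and 14.8 and 11.9 in HFD LKO libraries (log2 fold change -0.76, SE 0.12, adjusted p = 0.016). Neither gene had an HFD library above a CD library. Msmo1, the oxidase of the same steps, did not pass the test, and its highest HFD library (45.5 FPKM, the first HFD LKO library) was above its lowest CD library (41.2 FPKM). Its log2 fold change was -0.68 (adjusted p = 0.083). It was -0.92 without that HFD library, and -0.44 in the alternative fit with the smallest fall.

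The final steps showed the smallest p-value of the list. Dhcr7 (ENSMUSG00000058454, chr7:143823145-143848410, plus strand), the reductase that turns dehydrocholesterol into cholesterol, had 28.4 and 29.9 FPKM in CD f/f, 31.1 and 37.2 in CD LKO, 11.5 and 9.74 in HFD f/f and 16.6 and 13.2 in HFD LKO libraries. It fell by 1.23 on the log2 scale (SE 0.10, 95% interval -1.46 to -0.99, adjusted p = 0.0033), with mean FPKM 2.48 times higher on CD. Sc5d, the desaturase before it, had 173 and 179 FPKM in CD f/f, 201 and 188 in CD LKO, 119 and 119 in HFD f/f and 142 and 122 in HFD LKO libraries, the highest group means among the enzymes, and fell by 0.49 (SE 0.08, adjusted p = 0.014). Its HFD libraries were all below its CD libraries. Ebp, the sterol isomerase, had 130 to 149 FPKM on CD and 114 to 120 on HFD (log2 fold change -0.15, adjusted p = 0.094). Fdft1, the squalene synthase that commits isoprenoids to sterols, stood at 22.8 to 27.5 FPKM on CD and 20.4 to 26.7 on HFD (log2 fold change -0.04, 95% interval -0.29 to 0.21), but 20.9% of its exon bases overlap exons of Ctsb on the opposite strand, and the library kit named in the labels is not known to keep strand.

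**Figure D2:**
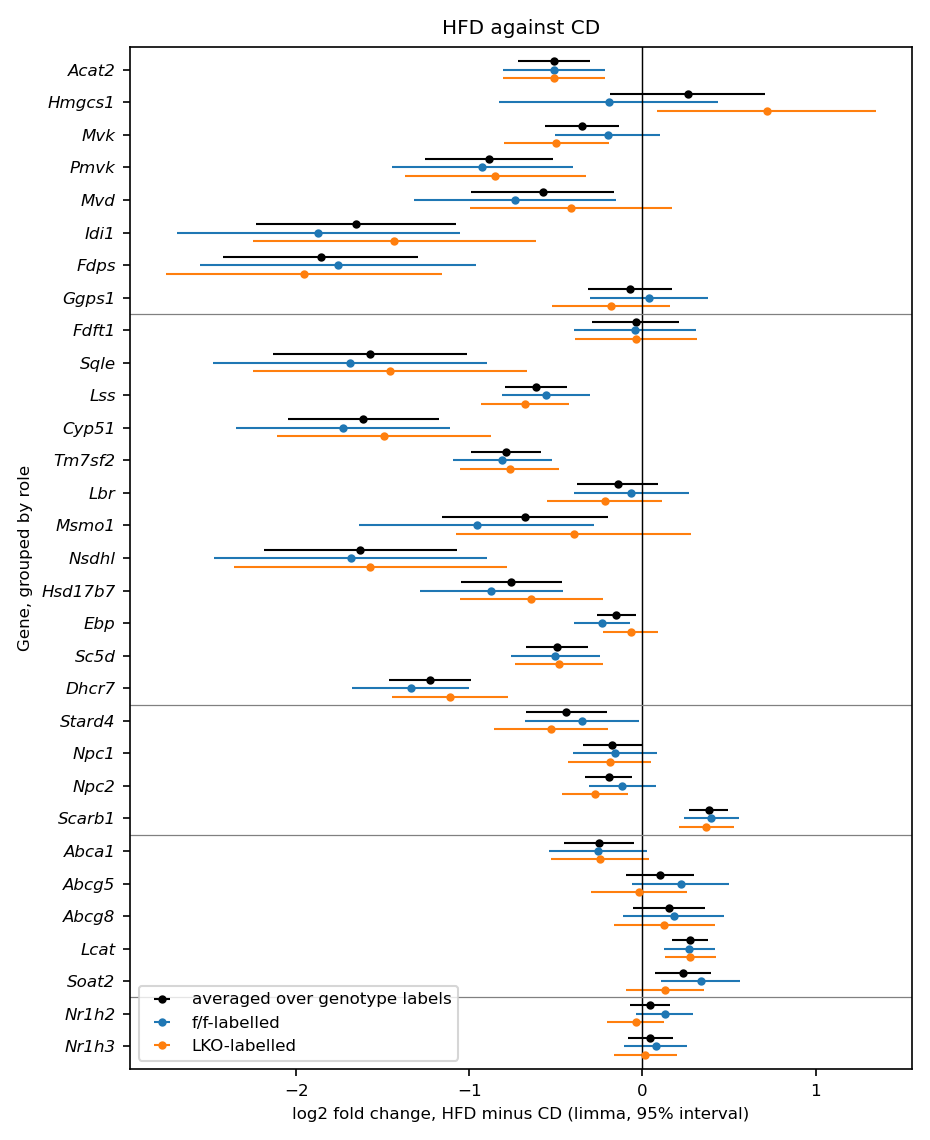
Log2 fold change of the 31 genes, HFD minus CD (horizontal axis), averaged over genotypes in black, in f/f-labelled libraries in blue and in LKO-labelled libraries in orange, with 95% intervals from limma and genes grouped by role. All 12 genes of the squalene and sterol steps lie to the left of 0 in each comparison, from -0.04 for Fdft1 to -1.73 for Cyp51 in f/f-labelled libraries, and Scarb1 lies to the right.

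Of all 31 genes, 17 had every HFD library under every CD library on the normalised scale and 2 had every HFD library above, where this held for 8.11% and 8.61% of all genes tested. The 14 enzymes among the 17 were the 12 that fell together with Mvk and Ebp. The diet was also compared within each genotype, on libraries that the other genotype does not share but with 1 estimate of the spread. In the f/f-labelled libraries 3 of the 31 genes fell (Dhcr7, Tm7sf2 and Cyp51) and 1 rose (Scarb1), against 0.705% and 0.627% of all genes. In the LKO-labelled libraries 5 fell (Dhcr7, Lss, Tm7sf2, Fdps and Cyp51) and 1 rose (Scarb1), against 1.44% and 1.57%. The log2 fold changes were -1.34 and -1.11 for Dhcr7, -1.73 and -1.49 for Cyp51, -0.56 and -0.68 for Lss and -1.76 and -1.96 for Fdps in f/f and LKO. Of the 20 enzymes, 18 had values below 0 in both genotypes, and 0 had an interaction of genotype and diet at an adjusted p under 0.05 in limma (1, Hmgcs1, at an unadjusted p under 0.05).

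The diet counts depended on single libraries more than the directions did. All 15 genes called kept their direction under every alternative tried, and 6 (Dhcr7, Cyp51, Lss, Tm7sf2, Fdps and Scarb1) stayed under an adjusted p of 0.05 in every one. The count of 15 became 8 without the second CD f/f library, 9 without the second CD LKO library, 7 without the first HFD f/f library and 16 without the first HFD LKO library. Within a genotype, leaving out 1 of the 8 libraries gave counts of 0 to 7, in place of 4 for f/f and 6 for LKO. Without the first HFD LKO library the count was 7 in each, Dhcr7, Cyp51, Fdps, Idi1, Nsdhl, Pmvk and Sqle in both.

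Cell type markers moved in part with diet, and their part in the falls was not tested. The summed FPKM of 4 stellate cell markers was 35.2 to 56.5 on CD and 66.2 to 90.5 on HFD. Most of this sum was Dcn, with mean FPKM 37.9 on CD and 62.6 on HFD. Of the 4 markers, 2 rose (Dcn and Reln), while Lrat (adjusted p = 0.089 in limma) and Des (adjusted p = 0.21) did not pass. Of 4 endothelial markers, 1 rose (sums 13.8 to 18.7 and 18.1 to 23.1 FPKM), where 5.04% of all genes tested rose. Of 6 hepatocyte markers, 1 fell (Tat) and 2 were called higher (Cyp2e1 and Ttr), and the normalisation shaped these calls. That of Ttr rests on the quantile normalisation, since its mean FPKM was 4221 on CD and 4183 on HFD. Ahsg had 5015 to 5387 FPKM on CD and 3592 to 4389 on HFD, but a normalised log2 fold change of -0.08 (adjusted p = 0.63 in limma). For Cyp2e1 mean FPKM was 1.46 times higher on HFD, and the normalised log2 fold change was 0.92. Of 6 Kupffer cell markers, 0 passed the test (sums 70.8 to 95.3 and 56.7 to 99.2 FPKM), the cholangiocyte sums were 2.38 to 2.67 and 2.05 to 2.43 FPKM, and the 4 adipocyte and 3 lymphocyte markers were under 1 FPKM in every library, each of the adipocyte markers at 0 in at least 1.

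Promoter sequences were read for part of the genes, whether or not they fell with diet. Proximal promoters of sterol genes are known to pair a sterol regulatory element, bound by SREBP, with a CCAAT box, bound by NF-Y. RefSeq promoter windows (GRCm38.p6, 250 bases before to 50 after each annotated start) were at hand for 24 of the 31 genes, in 29 windows, and were searched on both strands for the motif CCAAT and for TCACNCCA, a core of the sterol element. A CCAAT box lay in a window of 16 of the 17 enzymes covered, all but Acat2, and of 4 of the 7 other genes. It was in 20 of the 29 windows, where 37.4% of all 32851 windows of this length hold it. Of the 10 genes that fell with diet and had a window, 9 held a CCAAT box. So did Mvk, Mvd, Ggps1, Hmgcs1, Lbr, Msmo1 and Ebp, which were not called. Fdps and Sqle had no window. TCACNCCA, the only form of the sterol element searched, was in the windows of Hmgcs1 and Msmo1 alone, thus in 0 of the 10 genes that fell. It was in 4.36% of all windows. Sterol elements that differ from it in a fixed letter were not looked for, so its absence does not show that a gene lacks one. TAGGTCA, a core of the element bound by ROR receptors, was in 2 overlapping windows of Dhcr7, at the same place, and no other of these genes, and in 2.61% of all windows. Such matches are letters in a window and not shown to be sites.

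The 180 bases before the annotated RefSeq start are given 5′ to 3′ for 3 enzymes that fell (Nsdhl, Cyp51 and Lss). They are also given for Hmgcs1, which holds both motifs and was not among the genes that fell. The last is Abca1, an LXR target whose window has neither. For Nsdhl the RefSeq start lies before the gene start in GENCODE M21 (chrX:72918557). Capitals mark the CCAAT box on either strand and TCACNCCA.
Nsdhl (chrX:72918341-72918520, plus strand): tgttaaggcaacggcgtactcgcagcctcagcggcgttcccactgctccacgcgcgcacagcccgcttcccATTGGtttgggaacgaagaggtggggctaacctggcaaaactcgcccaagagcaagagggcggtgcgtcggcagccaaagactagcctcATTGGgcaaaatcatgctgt
Cyp51 (chr5:4104698-4104877, minus strand): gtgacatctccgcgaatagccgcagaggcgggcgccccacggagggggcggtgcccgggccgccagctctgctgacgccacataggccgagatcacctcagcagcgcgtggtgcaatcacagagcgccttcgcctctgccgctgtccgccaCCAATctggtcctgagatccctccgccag
Lss (chr10:76531425-76531604, plus strand): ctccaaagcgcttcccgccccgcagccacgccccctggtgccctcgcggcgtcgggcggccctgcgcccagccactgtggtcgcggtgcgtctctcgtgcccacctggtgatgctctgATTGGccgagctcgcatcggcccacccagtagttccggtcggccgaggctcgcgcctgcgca
Hmgcs1 (chr13:119690171-119690350, plus strand): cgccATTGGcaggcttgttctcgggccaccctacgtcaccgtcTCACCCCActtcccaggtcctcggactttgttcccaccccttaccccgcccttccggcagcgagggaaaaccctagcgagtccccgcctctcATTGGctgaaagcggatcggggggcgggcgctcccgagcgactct
Abca1 (chr4:53159896-53160075, minus strand): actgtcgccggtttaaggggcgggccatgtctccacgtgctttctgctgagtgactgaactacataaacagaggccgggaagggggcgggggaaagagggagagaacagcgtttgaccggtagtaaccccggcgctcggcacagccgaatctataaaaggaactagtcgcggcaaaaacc

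**Figure D3:**
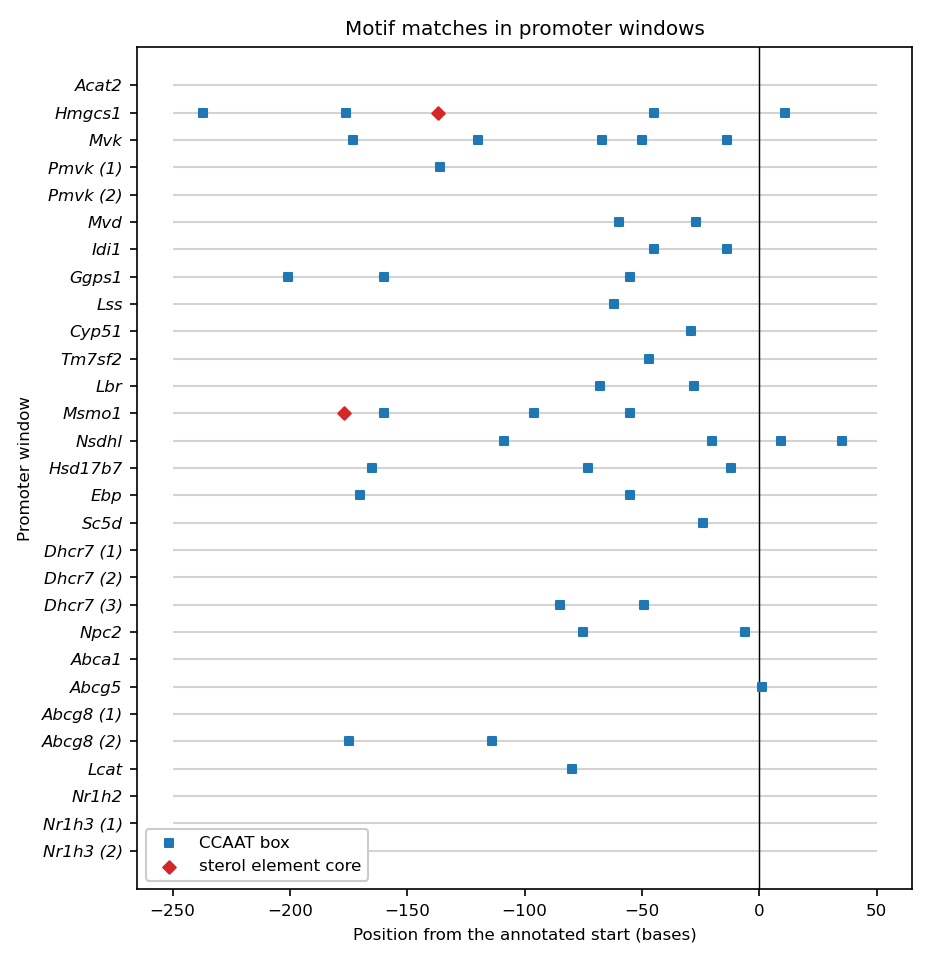
Position of CCAAT boxes and of TCACNCCA (sterol element core) in the 29 promoter windows, in bases from the annotated start, with 1 line per window and the start at 0. Windows of 16 of the 17 enzymes hold a CCAAT box, and those of Abca1, Nr1h2 and Nr1h3 hold none.

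Uptake and transport genes went both ways with diet. Scarb1 (ENSMUSG00000037936, chr5:125277087-125341094, minus strand), the receptor through which liver takes up cholesterol from HDL, had 65.5 and 59.4 FPKM in CD f/f, 70.2 and 75.6 in CD LKO, 77.8 and 78.9 in HFD f/f and 87.6 and 91.5 in HFD LKO libraries. Every HFD library was above every CD library, and the log2 fold change was 0.38 (SE 0.05, 95% interval 0.27 to 0.50, adjusted p = 0.0080). Stard4, a carrier that moves cholesterol between membranes, had 21.6 and 21.0 FPKM in CD f/f, 20.3 and 19.3 in CD LKO, 14.8 and 17.7 in HFD f/f and 14.9 and 11.4 in HFD LKO libraries. It fell by 0.44 (SE 0.10, adjusted p = 0.039), a call that most alternatives lost. Npc1 and Npc2, which pass cholesterol out of lysosomes, had log2 fold changes of -0.17 (adjusted p = 0.17) and -0.20 (adjusted p = 0.080). Npc2 had 14.7 to 17.0 FPKM on CD and 13.0 to 14.1 on HFD, without overlap.

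Of the 5 genes of efflux and esterification, 1 rose with diet and 0 fell, where 5.04% of all genes tested rose and 4.86% fell. Lcat (ENSMUSG00000035237, chr8:105939551-105943382, minus strand), the plasma enzyme that esterifies cholesterol on HDL, had the highest level of the 31 genes, with 348 and 322 FPKM in CD f/f, 344 and 345 in CD LKO, 384 and 391 in HFD f/f and 356 and 383 in HFD LKO libraries. It rose by 0.27 (SE 0.04, adjusted p = 0.015), but without quantile normalisation the value was 0.15 (adjusted p = 0.11) with median centring 0.18 (adjusted p = 0.074) and without the first HFD LKO library 0.28 (adjusted p = 0.056). Abca1, which loads cholesterol onto apolipoprotein A-I, had 17.6 to 22.8 FPKM on CD and 15.8 to 16.8 on HFD (log2 fold change -0.25, adjusted p = 0.11). Abcg5 and Abcg8, which together form the pump that sends sterols into bile, had 37.9 to 49.2 and 36.2 to 45.4 FPKM on CD and 41.5 to 51.7 and 41.6 to 51.3 FPKM on HFD, with log2 fold changes of 0.10 (95% interval -0.10 to 0.30) and 0.15 (95% interval -0.05 to 0.36). The LXR genes Nr1h3 and Nr1h2 had log2 fold changes of 0.05 (95% interval -0.08 to 0.18) and 0.04 (95% interval -0.07 to 0.16), at 38.7 to 44.0 and 16.2 to 18.2 FPKM over the 8 libraries.

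Between genotypes, no gene of the 31 passed an adjusted p of 0.05 in limma, on either diet, averaged over diets or in the interaction. Few genes did at all: 0.043% of all genes on HFD, 0.0172% on CD, 0.103% averaged over diets and 0.0344% in the interaction. At an unadjusted p under 0.05 there were 3 of the 31 on HFD, 2 on CD, 4 averaged and 1 in the interaction, against 9.58%, 12.3%, 13.5% and 8.35% of all genes, so that the shares were near or below those of the whole table. The median log2 fold change of LKO-labelled against f/f-labelled libraries was 0.05 on HFD and 0.07 on CD over the 31 genes. Comparisons on 1 diet and the average over diets use the same libraries.

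Hmgcs1 had the largest difference between genotypes. Hmgcs1 (ENSMUSG00000093930, chr13:119690379-119708260, plus strand) had 45.1 and 36.3 FPKM in CD f/f, 44.9 and 46.3 in CD LKO, 36.1 and 33.3 in HFD f/f and 97.4 and 53.7 in HFD LKO libraries. Both HFD LKO libraries were above the other 6, but they also lay far apart from each other. On HFD the log2 fold change was 1.10 (SE 0.27, 95% interval 0.47 to 1.73, adjusted p = 0.28 in limma), with mean FPKM 2.18 times higher in LKO-labelled libraries, and the interaction was 0.91 (95% interval 0.02 to 1.81, adjusted p = 0.59). Without the first HFD LKO library the HFD value was 0.64 (adjusted p = 0.55) and the interaction 0.46 (adjusted p = 0.85). Without the second they were 1.55 (adjusted p = 0.028) and 1.37 (adjusted p = 0.20).

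Scarb1 was higher in LKO-labelled libraries by 0.19 on HFD (95% interval 0.03 to 0.35, adjusted p = 0.43) and 0.22 on CD (95% interval 0.06 to 0.38, adjusted p = 0.29), with no overlap on either diet. The difference of Dhcr7 was 0.46 on HFD (95% interval 0.13 to 0.80, adjusted p = 0.36), and 0.29 (adjusted p = 0.85) without the first HFD LKO library. Soat2, which makes cholesteryl esters in hepatocytes, had 12.6 and 10.9 FPKM in CD f/f, 15.8 and 14.5 in CD LKO, 15.4 and 13.9 in HFD f/f and 15.8 and 16.8 in HFD LKO libraries. Its difference was 0.37 on CD (95% interval 0.14 to 0.60, adjusted p = 0.24), and the CD f/f pair was below the other 6 libraries. None of these passed the adjustment.

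**Figure D4:**
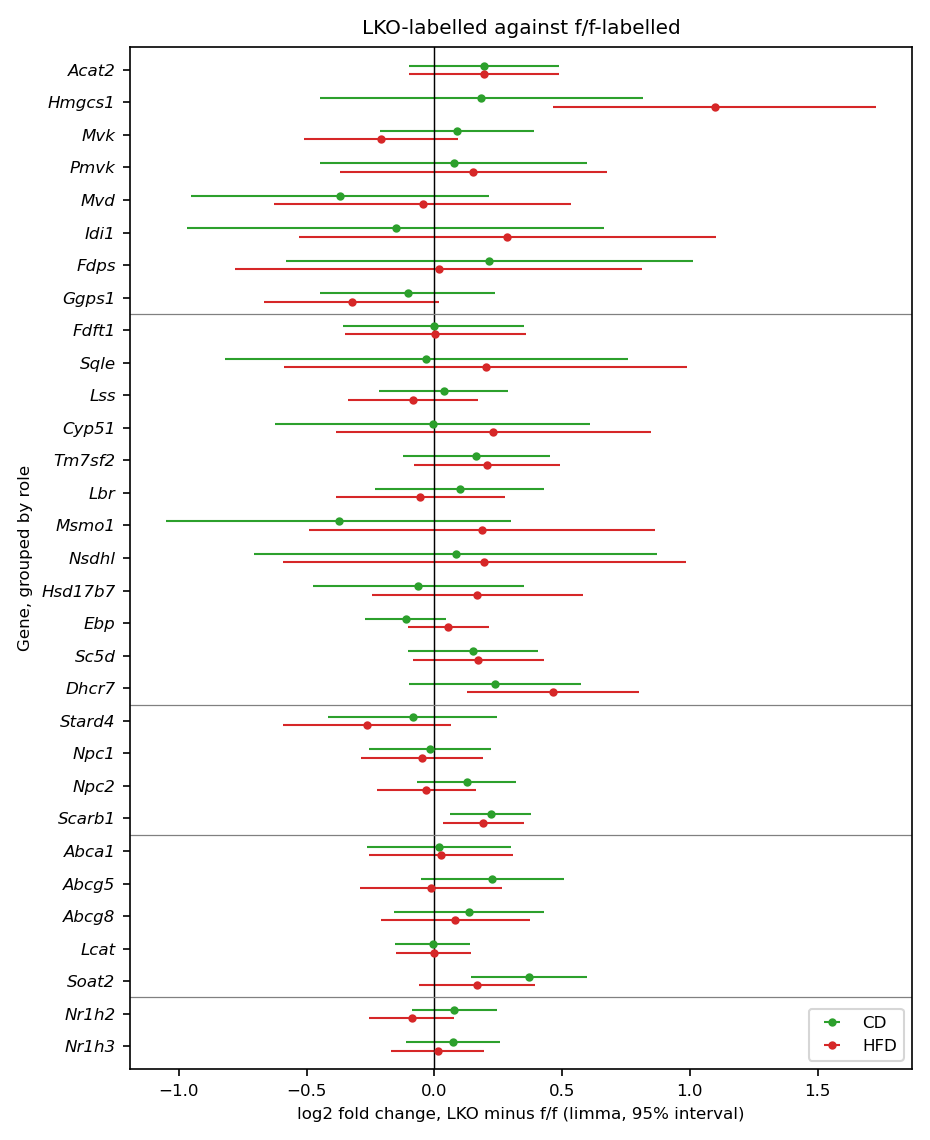
Log2 fold change of the 31 genes, LKO-labelled minus f/f-labelled, on CD in green and on HFD in red, with 95% intervals from limma and genes grouped by role. Most intervals cross 0, and Hmgcs1 on HFD, at 1.10, lies farthest from it.

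The libraries of the HFD LKO group differed from each other in the synthesis enzymes. On the normalised log2 scale 19 of the 20 enzymes were higher in the first than in the second, by a median of 0.38 (range -0.34 to 1.199), and 9 differed by more than 0.5, while 47.2% of all genes were higher in the first and 2.07% by more than 0.5. The 11 genes outside synthesis had a median difference of -0.03 in this pair. In the other pairs the enzymes' median difference was 0.00 in CD f/f, -0.11 in CD LKO and 0.04 in HFD f/f libraries, and 0 of the 20 were higher in the first by more than 0.5. The CD LKO pair was also one-sided, with 3 of the 20 higher in the first library, where 48.0% of all genes were. Hmgcs1 (97.4 and 53.7 FPKM), Sqle (5.84 and 2.02 FPKM) and Fdps (32.7 and 14.2 FPKM) show the gap. Replicate numbers carry no order, and each library holds 2 mice, so a difference between single mice cannot be told apart from one between libraries. Without the first of the pair the median of the 31 genes between genotypes on HFD was -0.09 in place of 0.05, and the median fall with diet in LKO-labelled libraries was -0.61 in place of -0.40.

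**Figure D5:**
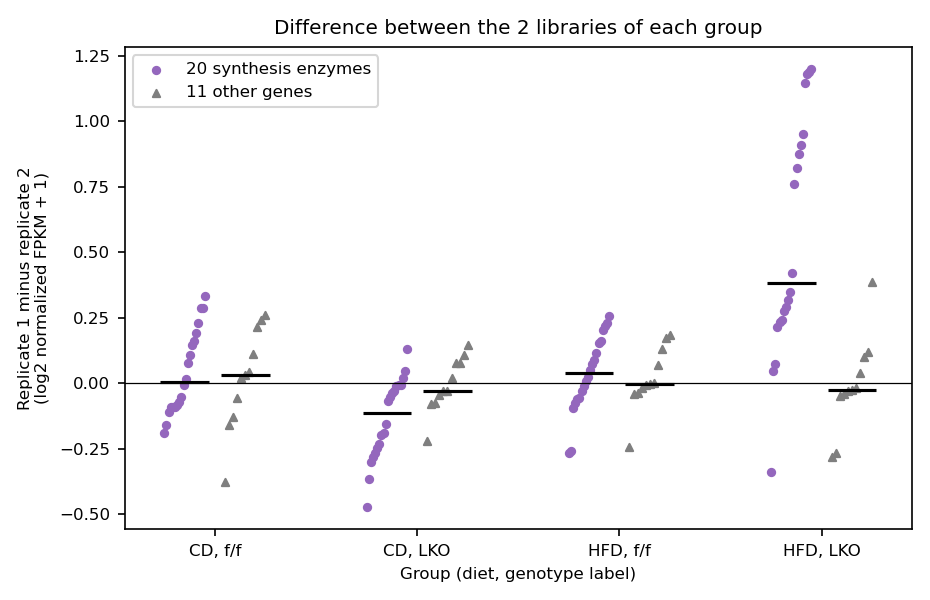
Difference between the libraries of each group (replicate 1 minus replicate 2, log2 of normalised FPKM + 1), with 1 point per gene, purple for the 20 synthesis enzymes and grey for the 11 other genes, and a bar at each median. Enzyme points of the HFD LKO pair lie above 0 for 19 of 20 genes, while 3 of 20 lie above 0 in CD LKO, 10 in CD f/f and 12 in HFD f/f.

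Genes that control the pathway were read from lists of 36 further genes, of which 34 passed the filter. With diet 2 of the 34 fell and 2 rose, shares near the 4.86% and 5.04% of all genes. Insig1, an SREBP2 target that holds SCAP in the endoplasmic reticulum, had 96.1 and 79.0 FPKM in CD f/f, 73.3 and 82.7 in CD LKO, 54.2 and 52.4 in HFD f/f and 55.1 and 49.1 in HFD LKO libraries, and fell by 0.56 (SE 0.08, adjusted p = 0.012). Insig2, which does the same work, went the other way and rose by 0.50 (SE 0.06, adjusted p = 0.0067). Its FPKM was 66.5 and 67.9 in CD f/f, 113 and 100 in CD LKO, 82.4 and 81.0 in HFD f/f and 157 and 156 in HFD LKO libraries. It differed with genotype as well, by 0.79 averaged over diets (adjusted p = 0.0074 in limma) and by 0.94 on HFD (adjusted p = 0.029). On CD the difference was 0.65 and did not pass. Stard5, a sterol carrier, fell by 0.25 with diet (adjusted p = 0.023), a call lost when any library but the first CD f/f one was left out. Mylip, an LXR target that marks lipoprotein receptors for breakdown, rose by 0.47 (adjusted p = 0.043), a call that most alternatives lost. Srebf2, the gene of SREBP2 itself, stood at 7.96 to 9.61 FPKM on CD and 8.30 to 10.05 on HFD.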

How the data were processed

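Libraries were made from polyadenylated liver RNA with the Illumina TruSeq RNA kit v2. Per the labels and the study's methods, the authors trimmed reads with cutadapt 1.0, aligned them to GRCm38 with TopHat2 2.0.7 and ran Cufflinks (version not given in the sources used here), and the deposited values are FPKM per gene on a linear scale. FPKM holds no counts, so count tests were not run and the depth behind a single value is unknown. With 2 libraries per group, precision is limited by their number.

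Genes above 1 FPKM in at least 1 library were kept (11634), transformed as log2(FPKM + 1), quantile normalised and fitted with limma 3.58.1 (R 4.3.3): 4 group means, empirical Bayes with trend, 4 residual and 2.80 prior degrees of freedom, Benjamini-Hochberg adjustment per comparison, threshold 0.05, 7 comparisons. Fold changes on this scale understate those of low genes. The study's own permutation procedure regroups the samples and was not used here. In its place limma was run, whose p-values set a group difference against the spread between pooled libraries, estimated in part over all genes. The spread between single mice was not measured. Where FPKM ratios or values are given, they are before normalisation. Symbols and coordinates came from GENCODE M21.

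Members were given with every library where their adjusted p was under 0.05 in any comparison, or where they were among the 5 largest log2 fold changes with an unadjusted p under 0.05 and no overlap between groups (for the interaction, the p alone). Genes of other lists were named by adjusted p, or as the 3 largest per list at an unadjusted p under 0.05; Srebf2 was named in addition, after its values were seen. Members and lists were chosen with earlier results of these data known. The fit was tested on simulated data. Alternatives were other filters, normalisations, pseudocount (0.1) and moderation, each comparison's 4 libraries alone, a replicate block and leaving out each library.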

Additional observations from a re-analysis of the deposited data

How the results depend on the processing

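Counts of the 31 genes with an adjusted p under 0.05 changed with the fit, and the cause was not tested. For HFD against CD averaged over genotypes the count of 15 was 7 to 16 with 1 library left out (8 without the second CD f/f, 9 without the second CD LKO and 7 without the first HFD f/f library), and the median log2 fold change was -0.42 to -0.27. Within f/f-labelled libraries the count of 4 was 11 with FPKM above 1 in all libraries (which leaves out Mvd), 1 with FPKM above 0 in 1 library, 1 without the trend and 0 to 7 with 1 library left out. Within LKO-labelled libraries the count of 6 was 10 and 1 with those filters, 3 without the trend, 0 with its 4 libraries alone and 0 to 7 with 1 library left out, and the median of -0.40 was -0.61 to -0.27. Leaving out a library leaves its group with 1, assumed to vary like the others.

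Between genotypes the count of 0 became 1 (Hmgcs1) on HFD and averaged over diets without the second HFD LKO library. With 1 library left out, the median was -0.090 to 0.18 on HFD (main value 0.05) and -0.12 to 0.12 for the interaction (main value 0.00), the negative values without the first HFD LKO library.

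Replicate numbers were not taken to pair the samples: the correlation of deviations from group means was 0.15 for the CD pairs of genotypes but -0.0037 in the lowest of 6 pairs of groups. With the replicate block the counts were 14 for diet averaged, 1 in f/f-labelled and 4 in LKO-labelled libraries.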

Other observations

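Of 10 genes that use isoprenoids for ends other than sterols (protein prenyltransferases and genes of dolichol and ubiquinone synthesis), 0 fell and 0 rose with diet at an adjusted p under 0.05 in limma (4.86% and 5.04% of all genes did), and 2 had an unadjusted p under 0.05, both higher on HFD: Fnta, a subunit of farnesyltransferase, by 0.15 (adjusted p = 0.12) and Rabggtb, a subunit of the Rab prenyltransferase, by 0.18 (adjusted p = 0.094). Their median log2 fold change was 0.04, with a range of -0.03 to 0.22. Whether this differs from the sterol enzymes was not tested.

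Between genotypes, Pggt1b, a subunit of a protein prenyltransferase, had 3.16 and 3.24 FPKM in CD f/f, 3.55 and 3.73 in CD LKO, 3.22 and 3.01 in HFD f/f and 4.09 and 4.38 in HFD LKO libraries (log2 fold change 0.24 averaged over diets, adjusted p = 0.16). Dhdds, which starts dolichol synthesis, was lower by 0.30 in LKO-labelled libraries (fold change -0.30, adjusted p = 0.17). Scap, the escort of SREBP, had 25.6 and 27.4 FPKM in CD f/f, 32.2 and 42.6 in CD LKO, 24.8 and 25.6 in HFD f/f and 32.8 and 29.6 in HFD LKO libraries (0.41, adjusted p = 0.15). Its genotype groups did not overlap on either diet, and none of these genes passed the adjustment.

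Of the lysosomal and peroxisomal genes, Lipa, the acid lipase that frees cholesterol from esters, had 70.7 and 69.3 FPKM in CD f/f, 70.6 and 78.1 in CD LKO, 71.1 and 70.7 in HFD f/f and 103 and 81.1 in HFD LKO libraries. On HFD the difference between genotypes was 0.39 (95% interval 0.08 to 0.69, adjusted p = 0.39), and 0.18 (adjusted p = 0.85) without the first HFD LKO library. Scp2, a sterol carrier, had 1381 to 1570 FPKM on CD and 1444 to 1548 on HFD, and its log2 fold change with diet was 0.26 (adjusted p = 0.077) after quantile normalisation but 0.035 (adjusted p = 0.75) without it. Mbtps1, the protease that cuts SREBP first, had a log2 fold change of -0.14 (adjusted p = 0.15) with diet, and Erg28, a scaffold of the demethylation complex, had -0.28 in f/f-labelled libraries (adjusted p = 0.26).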
